A study of Mus musculus with 10 samples.

Results

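This report describes 41 genes that mark T cells and natural killer (NK) cells or make up their killing machinery, chosen by name from a list and matched by gene symbol to the probe sets of the array. Of these, 36 had a named probe set, out of 19505 genes tested, and each of the 36 had 1 probe set. Trac, Cd27, Lck, Tcf7 and Gata3 were not analysed here. The arrays measured total RNA from complete colon tissue of wildtype C57BL/6 mice. All of the mice had colitis induced by 3% dextran sulfate sodium (DSS), which injures the colonic epithelium, in the drinking water and by an anti-PD1 antibody given i.p., a drug that blocks an inhibitory receptor of T cells. In 5 samples, called ECP here, the mice had in addition received donor cells treated by ECP, which stands for extracorporeal photopheresis, and 5 samples, called control, came from mice with DSS and anti-PD1 alone. Neither group holds mice without colitis, so each value below is a level in an inflamed colon. Age, sex, the times of treatment and the number of mice behind a sample are not known here. Where the labels do not state that samples are separate mice, p-values measure only the spread between these samples, which may be technical.

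T cells carry an antigen receptor that signals through the CD3 chains, and the coreceptors CD4 and CD8 divide them into helper and cytotoxic cells. NK cells have no such receptor and read stress and inhibitory ligands through other surface receptors, but share with cytotoxic T cells a store of perforin and granzymes. The colon holds these cells in lymphoid follicles, in the lamina propria and between epithelial cells, where intraepithelial lymphocytes bind E-cadherin through an integrin made with the product of Itgae. In whole tissue, a lower value can come from fewer cells of a type or from less RNA per cell, and the 2 cannot be told apart.

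Values are log2 intensities normalised across arrays, and the array medians lay between 6.94 and 6.98. The epithelial markers, among them Epcam, Muc2 and Krt8, had mean levels of 11.98 to 12.21 on every array, as in colon. The mean levels of 32 of the 36 genes lay below the median of all genes, from 4.10 for Klrb1c to 6.95 for Cd160; Ubash3a, Lat, Icos and Cd4 lay above it, and no detection calls were analysed here. Control replicate 4 stood apart from the other arrays before any comparison. Its 12 B cell and follicle markers, among them Cd79a and Ms4a1, had a mean level of 8.63, against 6.06 to 6.22 in the other controls and 6.02 to 7.09 in the ECP arrays, where ECP replicate 1 was the highest. Its 12 pancreatic acinar markers had a mean of 12.20 and those of control replicate 1 a mean of 10.37, whereas the 3 remaining controls had 5.62 to 6.49 and the ECP arrays 5.49 to 5.67. Results are therefore given with and without control replicate 4, and counts also without both ECP replicate 1 and control replicate 4.

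T cell, NK cell and cytotoxic genes did not differ between the groups past the threshold. The comparison asks whether transfer of ECP-treated cells went with another level of these genes in the colitic colon. Limma, with p-values adjusted over all genes, called 0 of 36 genes (0% of all 19505 genes called), and the smallest adjusted p was 0.935, for Ubash3a. At an unadjusted p under 0.05 limma found 1 gene lower in the ECP arrays (2.77% of all genes) and 0 higher (2.31% of all genes). In 0 of 36 genes did the 5 ECP arrays lie wholly above the 5 control arrays (0.39% of all genes) or wholly below them (0.831% of all genes). Of the 36 genes 15 had a higher mean in the ECP arrays and 21 a lower mean, with a median difference of -0.04, beside 0.01 for all genes, of which 53.3% had a higher and 46.7% a lower mean. The mean level over the 36 genes averaged 5.88 ± 0.13 (SD, n = 5) with ECP and 5.92 ± 0.32 (SD, n = 5) without it.

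Without control replicate 4 the direction of many of these genes turned. Then 27 of the 36 genes had a higher mean in the ECP arrays and 9 a lower mean (51% and 49% of all genes), with a median difference of 0.08 beside 0.00 for all genes, and 18 genes changed sign. The mean level of the remaining controls was 5.78 ± 0.09 (SD, n = 4). Limma again called 0 genes (0% of all genes), while 4 genes, Cd8a, Icos, Gzmb and Cd69, were higher at an unadjusted p under 0.05 (2.86% of all genes) and 0 were lower (3.54% of all genes). Without ECP replicate 1 as well, 21 genes had a higher mean and 15 a lower mean (51.2% and 48.8% of all genes), and limma called 0. At an unadjusted p under 0.05 Cd8a and Gzmb were then higher (2.46% of all genes) and Ubash3a was lower (2.98% of all genes).

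**Figure D1:**
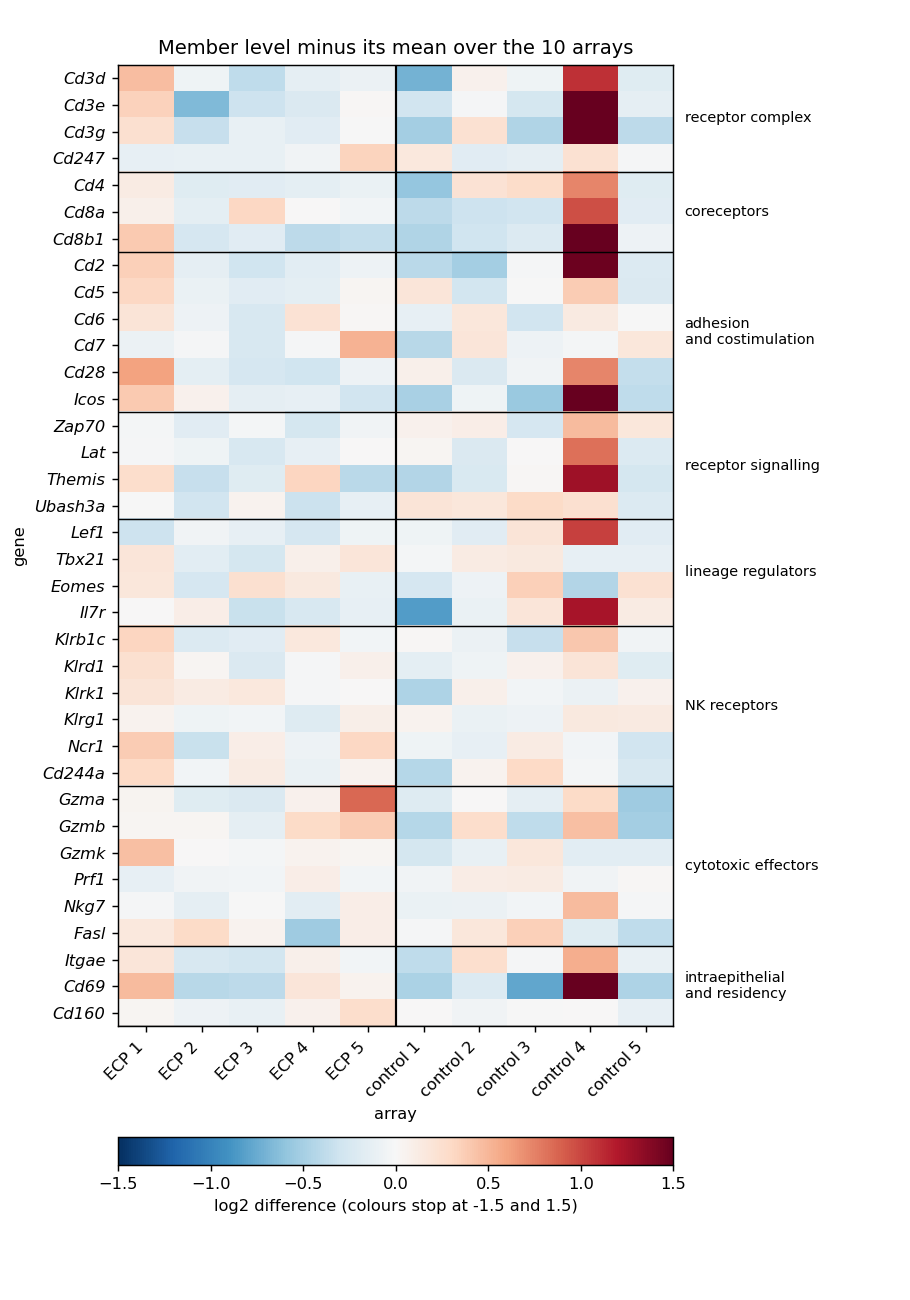
Level of each of the 36 genes on each array minus the gene's mean over the 10 arrays, on the log2 scale, with genes ordered by role; red is above the mean and blue below it, and colours stop at 1.5 either way. Control replicate 4 is the highest array for 21 of the 36 genes, most of them in the upper rows, and ECP replicate 1 is the highest ECP array for 19.

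**Figure D2:**
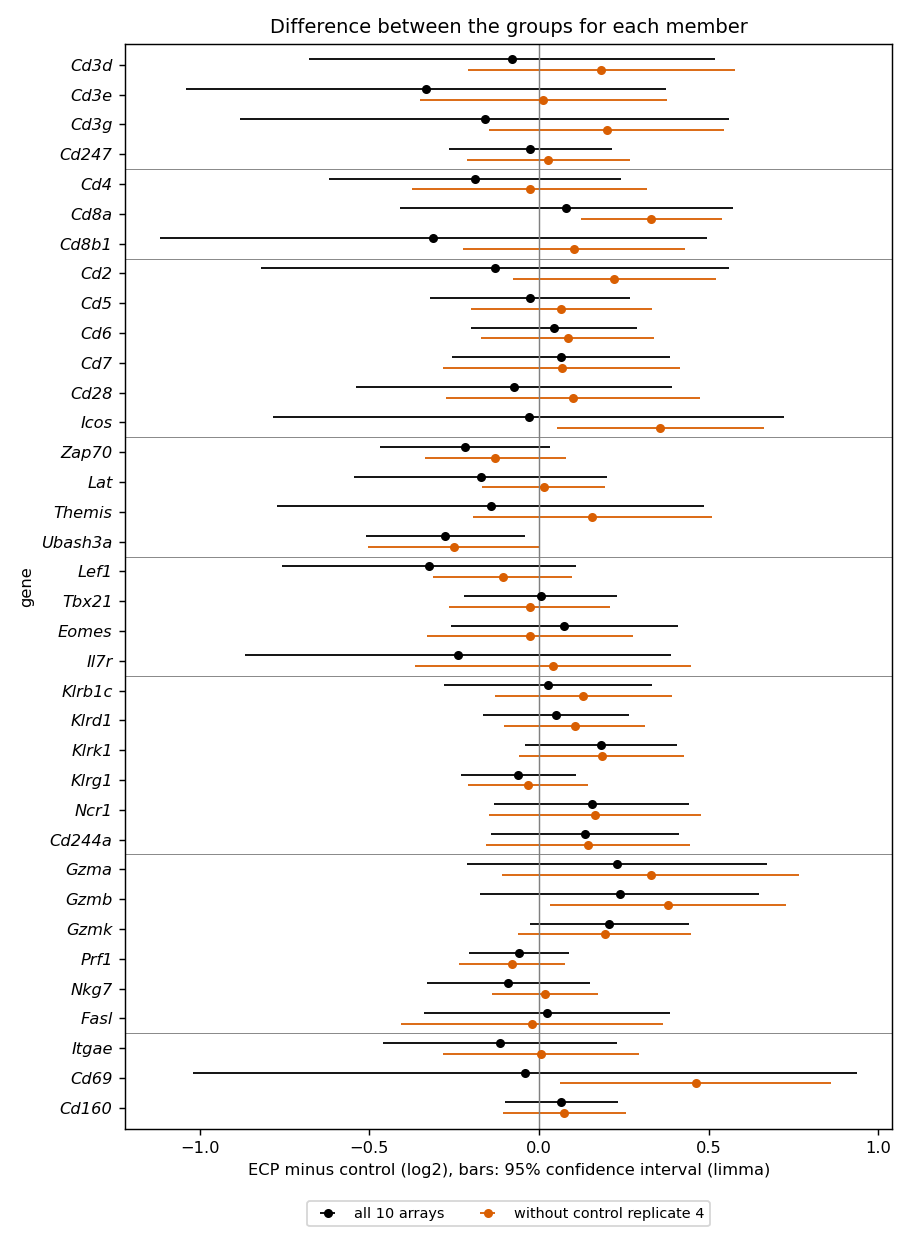
Difference of ECP minus control for each gene on the log2 scale, with 95% confidence intervals from limma, for all 10 arrays (black) and without control replicate 4 (orange). With all arrays the interval of Ubash3a alone excludes 0; without control replicate 4 those of Cd8a, Icos, Gzmb and Cd69 do, and no gene passes after adjustment over all genes.

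Control replicate 4 did not exceed the other controls equally across the roles. Its values lay above the mean of the other 4 controls for 31 of 36 genes (43.7% of all genes), by a median of 0.51, beside -0.04 for all genes, and by more than 1 on the log2 scale, a 2-fold difference, for 11 genes (1.92% of all genes). These 11 were Cd3d, Cd3e, Cd3g, Cd8a, Cd8b1, Cd2, Icos, Themis, Lef1, Il7r and Cd69. They are genes of T cells in the main, although mouse B cells can also express Cd2 and Cd69. None of the 6 NK receptors and none of the 6 cytotoxic effectors was among them, where the largest gaps were 0.53 for Klrb1c and 0.72 for Gzmb. The NK receptors were also the role with the lowest median level, 4.97, against 5.67 for cytotoxic effectors and 6.2 for the receptor complex. The lineage regulators, with Lef1 and Il7r among the 11, had a median level of 5.61. Whether a low level held the gaps down was not tested. Control replicate 4 was the highest of the 10 arrays for 21 of the 36 genes (15.7% of all genes) and the lowest for 1, Eomes. ECP replicate 1 was in turn the highest ECP array for 19 of the 36 (23.2% of all genes), with a median gap of 0.22 to the other ECP arrays. The 12 B cell and follicle markers moved with these gaps, with a median of 2.59 for control replicate 4 and 0.93 for ECP replicate 1. Macrophage markers did so too, with 0.74 and 0.68. The 10 epithelial markers were all lower in control replicate 4, with a median of -0.15. All 8 smooth muscle markers were lower there too, with a median of -0.395. Their mean level was 10.11 and 10.46 in control replicates 1 and 4, against 10.97 to 11.03 in the other controls. In the ECP arrays it was 10.72 to 11.29, a difference of 0.30 between the groups, or 0.24 without control replicate 4. The part of these other cell types in the results was not tested, and 1 array against 4 has no replicate of its own.

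**Figure D3:**
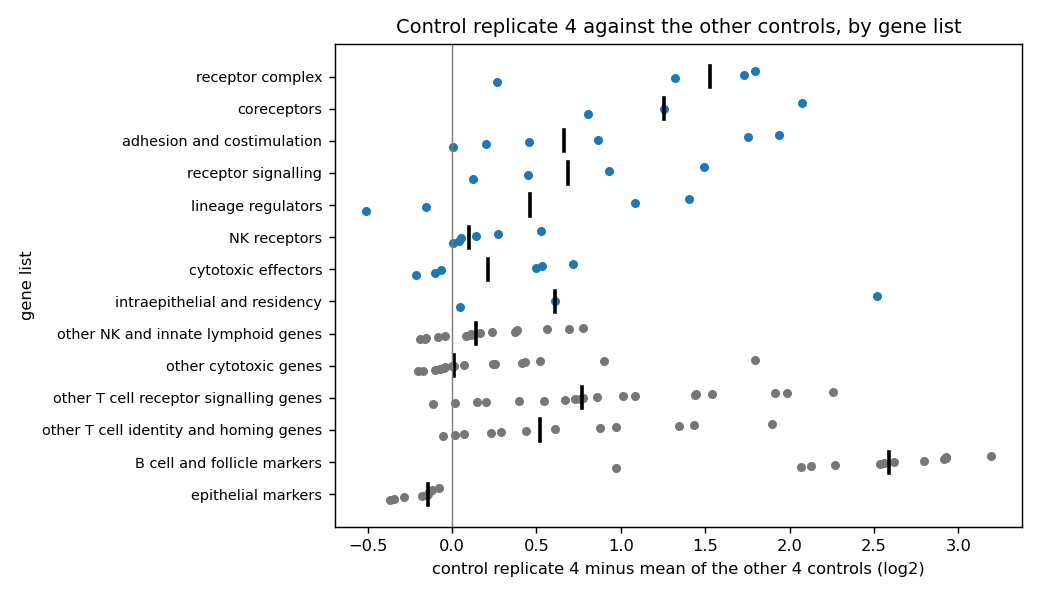
Control replicate 4 minus the mean of the other 4 controls, on the log2 scale, for each gene of a list (points) with the list's median (black bar); blue marks the roles of the 36 genes and grey other lists. Receptor complex and coreceptor genes reach 1.79 and 2.07, NK receptors stay at or below 0.53, and B cell and follicle markers lie between 0.97 and 3.20.

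Promoters are shown for 2 genes that were far higher in control replicate 4 than in the other controls. They are also shown for 2 genes that were close there to the mean of the other controls. RefSeq promoter windows (GRCm38.p6) matched 25 of the 36 genes, and the 250 bases before the start are printed 5′ to 3′ for the 2 matched genes with the largest gaps in absolute size, Cd3g (1.79) and Cd3e (1.73), and the 2 with the smallest in absolute size, Klrk1 (0.01) and Ncr1 (0.04). The Cd3g window is chr9:44980432-44980681 and the Cd3e window chr9:45009612-45009861, both on the minus strand; the genes are neighbours, with Cd3d alone between them. The Klrk1 window is chr6:129623865-129624114 on the minus strand and the Ncr1 window chr7:4337465-4337714 on the plus strand. Capitals mark matches, on either strand, to 4 motifs that do not contain each other: TGTGGT (RUNX core), AGGAAG (ETS-type), CAGCTG (E-box) and AGGTGT (T-box type).
Cd3g: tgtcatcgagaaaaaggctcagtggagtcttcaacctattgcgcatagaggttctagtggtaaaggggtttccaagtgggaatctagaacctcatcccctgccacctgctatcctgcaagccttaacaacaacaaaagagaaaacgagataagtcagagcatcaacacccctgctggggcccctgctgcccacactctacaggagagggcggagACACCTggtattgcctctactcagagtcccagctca
Cd3e: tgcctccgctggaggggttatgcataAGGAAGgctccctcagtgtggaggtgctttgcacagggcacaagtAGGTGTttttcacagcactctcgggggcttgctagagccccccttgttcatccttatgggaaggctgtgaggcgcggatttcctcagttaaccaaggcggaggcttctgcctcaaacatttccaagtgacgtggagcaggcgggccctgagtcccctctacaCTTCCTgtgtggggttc
Klrk1: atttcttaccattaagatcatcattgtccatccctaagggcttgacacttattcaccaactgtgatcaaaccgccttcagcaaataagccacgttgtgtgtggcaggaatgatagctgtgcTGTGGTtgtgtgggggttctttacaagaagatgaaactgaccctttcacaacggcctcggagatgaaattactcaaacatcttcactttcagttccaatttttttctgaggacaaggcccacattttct
Ncr1: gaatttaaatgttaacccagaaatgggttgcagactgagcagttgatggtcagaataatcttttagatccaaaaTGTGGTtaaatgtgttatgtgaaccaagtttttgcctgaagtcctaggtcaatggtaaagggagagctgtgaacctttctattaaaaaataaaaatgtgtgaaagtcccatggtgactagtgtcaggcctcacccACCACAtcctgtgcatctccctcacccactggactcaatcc
TGTGGT stood in the windows of 7 of the 10 matched NK receptor and cytotoxic genes, namely Klrb1c, Klrk1, Ncr1, Gzma, Gzmb, Prf1 and Nkg7, and in 0 of the 7 matched genes with a gap above 1. Of all 27025 genes with a window 14.2% hold it. Among all 25 matched genes 8 held it, with Cd160 the 1 outside those 10. The 10 were grouped by role and the 7 by gap, and a link of the motif to the gap was not tested. AGGTGT stood in Cd3d, Cd3e and Cd3g among those 7 and in 4 of the 10, beside 12% of all windows. AGGAAG stood in 3 of the 7 and 4 of the 10, beside 29.2%, and CAGCTG in 0 and 1, beside 12.8%. A match describes letters in a window and is not a binding site.

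The T cell receptor complex genes had means in the ECP arrays at or below those in the controls with all arrays, and at or above them without control replicate 4. All values below are in the order of replicates 1 to 5. Cd3e, a signalling chain of the complex, was at 6.77, 5.76, 6.12, 6.22 and 6.45 in the ECP arrays and 6.14, 6.41, 6.16, 7.98 and 6.29 in the controls. Its control replicate 4 lies above every other array, and the other controls fall inside the ECP range. The difference of -0.33 (SE 0.32, 95% confidence interval -1.04 to 0.37, limma adjusted p = 0.998) became 0.01 (SE 0.17, interval -0.35 to 0.38) without that array. Cd3g, its partner chain, was at 6.40, 5.81, 6.04, 5.99 and 6.15 in the ECP arrays and 5.65, 6.39, 5.71, 7.67 and 5.77 in the controls. The groups overlap again, and its difference went from -0.16 (SE 0.33) to 0.20 (SE 0.16) without control replicate 4. Cd3d differed by -0.08 (SE 0.27), or 0.18 without that array. Cd247, which encodes the zeta chain and is also used by NK cell receptors, behaved less unevenly, with a gap of 0.27 in control replicate 4 and differences of -0.03 and 0.03. Its highest array was ECP replicate 5, at 6.62.

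**Figure D4:**
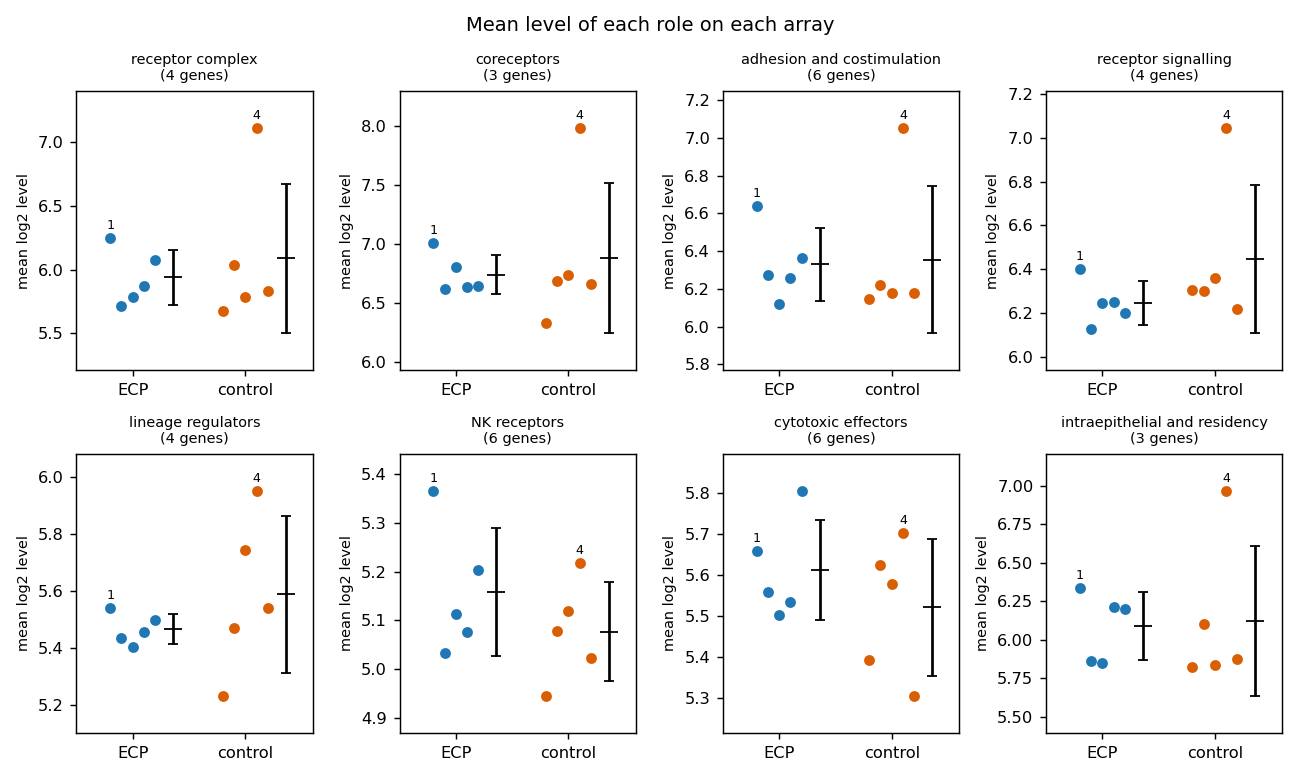
Mean log2 level of the genes of each role on each array, with the group mean and SD over 5 arrays beside the points; the vertical axes differ between panels, and 1 and 4 mark ECP replicate 1 and control replicate 4. Control replicate 4 is the highest array in every panel except NK receptors, led by ECP replicate 1 at 5.37, and cytotoxic effectors, led by ECP replicate 5 at 5.81.

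Among the coreceptors, Cd8a was the gene whose groups separated once control replicate 4 was left out. Cd8a, the CD8 chain found on cytotoxic T cells and on many intraepithelial lymphocytes, was at 6.77, 6.54, 7.01, 6.70 and 6.66 in the ECP arrays and 6.30, 6.39, 6.40, 7.66 and 6.52 in the controls. All 5 ECP arrays lie above the 4 other controls and below control replicate 4. The difference was 0.08 (SE 0.22, interval -0.41 to 0.57) with all arrays. Without control replicate 4 it was 0.33 (SE 0.09, interval 0.12 to 0.54, limma adjusted p = 0.510), and without ECP replicate 1 as well 0.32 (SE 0.10, limma adjusted p = 0.721). It was the 1 of 36 genes whose groups did not overlap then, in either case, where 0.907% and 1.46% of all genes lie wholly higher and 1.37% and 1.96% wholly lower (0 of the 36). It was singled out after its values were seen. Cd8b1, the second CD8 chain, which pairs with the first on conventional cytotoxic T cells, was at 6.26, 5.61, 5.70, 5.48 and 5.52 in the ECP arrays and 5.42, 5.58, 5.66, 7.68 and 5.79 in the controls. Here the ECP arrays other than replicate 1 lie within the range of the other controls, and the difference went from -0.31 (SE 0.37) to 0.10 (SE 0.15) without control replicate 4. Cd4, the helper T cell coreceptor, which macrophages can express too, was at 7.99, 7.69, 7.70, 7.72 and 7.76 against 7.28, 8.09, 8.14, 8.60 and 7.68. The ECP arrays are close together inside the control range, and the difference was -0.19 (SE 0.20), or -0.03 (SE 0.16) without control replicate 4.

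The adhesion and costimulation genes showed small differences with all arrays, from -0.13 for Cd2 to 0.07 for Cd7, and all 6 had higher ECP means without control replicate 4. Cd2 encodes an adhesion receptor of T and NK cells that mouse B cells can express too. It was at 6.16, 5.66, 5.50, 5.64 and 5.72 in the ECP arrays and 5.40, 5.29, 5.78, 7.27 and 5.60 in the controls. Control replicate 4 is highest and ECP replicate 1 next, and the difference of -0.13 (SE 0.32) became 0.22 (SE 0.14) without the former. Icos, a costimulatory receptor of activated and follicular helper T cells, was at 7.72, 7.40, 7.20, 7.21 and 7.05 in the ECP arrays and 6.84, 7.27, 6.78, 8.90 and 6.96 in the controls. Its difference went from -0.03 (SE 0.34) to 0.36 (SE 0.14, interval 0.05 to 0.66, limma adjusted p = 0.731) without control replicate 4, with control replicate 2 inside the ECP range. Cd7, found on T and NK cells, was at 6.43, 6.49, 6.27, 6.48 and 7.03 against 6.10, 6.69, 6.43, 6.48 and 6.68. No array of the controls stands out for Cd7, whose gap in control replicate 4 was 0.01, and its difference was 0.07 (SE 0.15) either with or without that array, where the SE was 0.16. The costimulatory receptor gene Cd28 differed by -0.07, or 0.10 without control replicate 4, and was high in ECP replicate 1 (6.82) and control replicate 4 (6.94). Cd5 and Cd6, which lie next to each other in the genome, differed by -0.03 and 0.04, or 0.07 and 0.08.

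The signalling genes had lower ECP means for all 4 genes, and Ubash3a, which encodes a phosphatase-like protein that restrains T cell receptor signalling, had the smallest p of all 36 genes. Ubash3a was at 7.14, 6.85, 7.19, 6.82 and 7.01 in the ECP arrays and 7.34, 7.31, 7.43, 7.38 and 6.94 in the controls. Control replicates 1 to 4 lie above all ECP arrays, and control replicate 5 lies among them. The difference was -0.28 (SE 0.11, interval -0.51 to -0.04), which did not pass after adjustment (limma adjusted p = 0.935), and -0.25 (SE 0.11, interval -0.50 to 0.00) without control replicate 4. Zap70, the kinase that docks on phosphorylated CD3 chains, was at 5.37, 5.22, 5.36, 5.14 and 5.34 against 5.46, 5.49, 5.14, 5.87 and 5.57. All but control replicate 3 lie above the ECP arrays, and the difference was -0.22 (SE 0.11), or -0.13 (SE 0.10) without control replicate 4. Lat, the membrane adaptor that Zap70 phosphorylates, differed by -0.17, or 0.01 without that array. Themis, which tunes receptor signals in developing T cells, differed by -0.14, or 0.16. The mean level of the 4 genes differed by -0.20 with all arrays and -0.05 without control replicate 4.

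Among the lineage regulators, Lef1 and Il7r were high in control replicate 4, and Tbx21 and Eomes were not. Lef1, a transcription factor of naive T cells that epithelial and stromal cells can also express, was at 5.65, 5.91, 5.84, 5.71 and 5.90 in the ECP arrays and 5.90, 5.79, 6.16, 6.99 and 5.79 in the controls. Il7r, the interleukin-7 receptor chain of naive and memory T cells and innate lymphoid cells, was at 5.94, 6.03, 5.60, 5.69 and 5.81 against 5.09, 5.83, 6.11, 7.17 and 6.05. In both genes control replicate 4 is the highest of the 10 arrays, and Il7r is also low in control replicate 1. The differences of -0.32 (SE 0.20) and -0.24 (SE 0.29) became -0.11 (SE 0.09) and 0.04 (SE 0.19) without control replicate 4. Tbx21 and Eomes, the T-box factors of cytotoxic and NK cells, were not high in that array, with gaps of -0.16 and -0.51. Their mean levels, 4.93 and 5.28, were also lower than the 5.97 of Lef1 and the 5.93 of Il7r. Effector genes outside this role went both ways. Gaps were 0.72 for Gzmb and 1.80 for Ccl5, against -0.07 for Gzmk and -0.10 for Prf1. The differences of Tbx21 and Eomes were 0.00 (SE 0.10) and 0.07 (SE 0.15), or -0.03 for each without control replicate 4.

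NK receptor genes had slightly higher ECP means for 5 of 6 genes, with or without control replicate 4. Their mean level was 5.37, 5.03, 5.11, 5.08 and 5.20 in the ECP arrays and 4.95, 5.08, 5.12, 5.22 and 5.02 in the controls, a difference of 0.08 with all arrays, 0.12 without control replicate 4 and 0.06 without ECP replicate 1 as well. It was 0.03 without ECP replicate 1 alone, the highest ECP array for 5 of the 6 genes, and 0.05 without control replicate 1 alone. Klrk1, which encodes the activating receptor NKG2D, was at 5.21, 5.14, 5.19, 5.00 and 5.03 against 4.56, 5.10, 4.98, 4.94 and 5.08. Control replicates 1, 3 and 4 lie below all ECP arrays, control replicates 2 and 5 lie among them, and the difference was 0.18 (SE 0.10, interval -0.04 to 0.41, limma adjusted p = 0.998). Ncr1, the activating receptor NKp46 of NK cells and some innate lymphoid cells, was at 5.30, 4.58, 5.01, 4.83 and 5.23 against 4.85, 4.79, 5.03, 4.87 and 4.62. The ECP arrays spread on both sides of the controls, and the difference was 0.16 (SE 0.13). Cd244a, a receptor of the SLAM family, differed by 0.13 (SE 0.13), the lectin-like receptor genes Klrd1 and Klrb1c by 0.05 (SE 0.10) and 0.03 (SE 0.14), and Klrg1, an inhibitory receptor of mature effector cells, by -0.06 (SE 0.08). Klrb1c, which codes for NK1.1, had the lowest level of the 36 genes, between 3.75 and 4.51.

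Of the cytotoxic effectors, the 3 granzyme genes in this role had higher ECP means, and the perforin gene did not. Granzyme genes in the list of further cytotoxic genes did not share 1 direction. With all arrays Gzmm differed by 0.03, and Gzmc, Gzmf and Gzmg by -0.04, -0.13 and -0.07. Gzmb, a protease that triggers apoptosis in target cells, was at 6.12, 6.12, 5.95, 6.37 and 6.47 in the ECP arrays and 5.66, 6.35, 5.70, 6.54 and 5.58 in the controls. Control replicates 1, 3 and 5 lie below all ECP arrays, and control replicates 2 and 4 lie among or above them. The difference was 0.24 (SE 0.19, interval -0.17 to 0.65) with all arrays and 0.38 (SE 0.16, interval 0.03 to 0.73, limma adjusted p = 0.757) without control replicate 4. Gzmk, a granzyme of memory-type CD8 T cells, was at 4.63, 4.18, 4.14, 4.23 and 4.21 against 3.91, 4.06, 4.34, 4.02 and 4.02. ECP replicate 1 is high and control replicate 3 lies above the other ECP arrays, and the difference was 0.21 (SE 0.11). Without ECP replicate 1 and control replicate 4 the Gzmk difference was 0.11 (SE 0.09). Gzma, which lies next to Gzmk in the genome, differed by 0.23 (SE 0.20), with ECP replicate 5 at 7.02 and the other arrays between 5.63 and 6.44. Without ECP replicate 5 the Gzma difference was 0.04, and without control replicate 5 it was 0.13. Prf1, the pore-forming protein that lets granzymes into target cells, differed by -0.06 (SE 0.07, interval -0.21 to 0.09). Nkg7, a granule membrane protein, differed by -0.09 (SE 0.11), or 0.02 without control replicate 4, and Fasl, the ligand of the death receptor FAS, by 0.02 (SE 0.17).

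None of the 3 intraepithelial and residency genes passed the test, and 1 had a higher ECP mean with all arrays against 3 without control replicate 4. Itgae, the integrin chain CD103, was at 6.21, 5.78, 5.75, 6.10 and 5.99 in the ECP arrays and 5.64, 6.27, 6.01, 6.57 and 5.92 in the controls. Control replicates 2 and 4 lie above all ECP arrays and control replicate 1 below them, and the difference of -0.12 (SE 0.16) became 0.01 (SE 0.13) without control replicate 4. Cd160, a receptor of intraepithelial and NK cells, was at 6.98, 6.88, 6.84, 7.01 and 7.21 against 6.96, 6.90, 6.95, 6.96 and 6.83. The controls differ among themselves by an SD of 0.05, control replicate 4 has a gap of 0.05, and the difference was 0.07 (SE 0.08, interval -0.10 to 0.23). Cd69, an early activation marker that is also kept by resident T cells, was at 5.82, 4.94, 4.95, 5.53 and 5.39 in the ECP arrays and 4.87, 5.14, 4.56, 7.38 and 4.88 in the controls. Its control replicate 4 has the largest gap of the 36 genes, 2.52. The difference of -0.04 (SE 0.45, interval -1.02 to 0.94) became 0.46 (SE 0.18, interval 0.06 to 0.86, limma adjusted p = 0.739) without that array and 0.34 (SE 0.16) without ECP replicate 1 as well.

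Other genes of the same pathways gave 0 calls by limma in each of 5 lists, with 1 gene lower at an unadjusted p under 0.05 with all arrays (2.77% of all genes) and 0 higher (2.31%). Without control replicate 4 there were 4 higher (2.86% of all genes), Il18rap, Il12rb2, Ifng and Ccl5, and 0 lower (3.54% of all genes). The groups of Il12rb2 did not overlap then (0.907% of all genes wholly higher). When ECP replicate 1 was left out as well, the same 4 were higher (2.46% of all genes) and Skap1 was lower (2.98% of all genes). Cd226 is counted both in the receptor signalling list and in the list of NK and innate lymphoid genes. Of 20 further T cell receptor signalling genes 2 had a higher ECP mean and 18 a lower one (median difference -0.09), against 16 and 4 without control replicate 4 (0.10) and 10 and 10 without ECP replicate 1 as well (0.00). The 1 gene with all arrays was Sit1, an adaptor that damps receptor signals, which differed by -0.50 (SE 0.21, limma adjusted p = 0.939) with all arrays and by -0.37 when control replicate 4 was left out. The adaptor gene Skap1 differed by -0.26. Of 12 T cell identity and homing genes 2 were higher and 10 lower (median -0.14), or 6 and 6 without control replicate 4 (0.01) and 4 and 8 without both arrays (-0.05), with the helper cell ligand gene Cd40lg at -0.36 and the gut-homing integrin gene Itgb7 at -0.16. Of 3 measured genes of gamma delta T cells 1 was higher and 2 lower, with Blk, which B cells express as well, at -0.48 and Sox13 at -0.06. When control replicate 4, where Blk had a gap of 2.07, was left out, 0 were higher and 3 lower. Blk was then at -0.07 and Sox13 at -0.08. The counts were the same when ECP replicate 1 was left out as well.

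In the lists of NK and cytotoxic genes the counts are to be read beside the 53.3% of all genes that had a higher ECP mean. Of 16 NK and innate lymphoid genes 10 had a higher ECP mean and 6 a lower one (median difference 0.06), with the NK receptor gene Klra7 at 0.23 and the transcription factor gene Zbtb16 at -0.31. Of 17 further cytotoxic genes 12 were higher and 5 lower (0.03), with the interferon gamma gene Ifng at 0.22 (SE 0.11, limma adjusted p = 0.996) and the chemokine gene Xcl1 at 0.13. Without control replicate 4 these counts were 11 and 5 (0.09) and 12 and 5 (0.04), without ECP replicate 1 as well 10 and 6 (0.06) and 11 and 6 (0.04), and the difference of Ifng was 0.27 (SE 0.11, limma adjusted p = 0.755). Control replicate 4 had median gaps of 0.77 in the signalling list and 0.52 in the identity list, against 0.14 in the NK list and 0.01 in the cytotoxic list, and within the last the chemokine gene Ccl5, named after its values were seen, had a gap of 1.80. Its difference was 0.26 (SE 0.36) with all arrays and 0.62 (SE 0.21, interval 0.15 to 1.09, limma adjusted p = 0.671) without control replicate 4.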

How the data were processed

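The series holds 10 single-colour arrays, 5 ECP and 5 control, grouped by sample title. The deposited values are log2 intensities per probe set, for which the submitters' processing notes name the tool oligo and the RMA method; the sources used here give no version, option or genome build. RMA corrects background, forces arrays to a common distribution and summarises probes, so a shift of most genes in 1 direction is removed. Probe sets were named by the platform annotation (19572 of 22203 named, all matched by gene ID to a RefSeq table of GRCm38.p6); the probe set with the highest mean stood for a gene, which left 19505 genes.

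Groups were compared with limma 3.58.1 in R 4.3.3 (lmFit, eBayes, two-sided, no covariate), with Benjamini-Hochberg adjustment over all genes, a threshold of 0.05 and 95% intervals. Differences are ECP minus control. A level of a list is the mean log2 value of its genes, with no test. In simulated data for this comparison on 19505 genes, 62.7% of changes of 0.5 log2, 97% of 1 and 100% of 2 were called, with 7 false calls. These rates are over all genes, whose median control SD was 0.16 against 0.29 for the 36 genes, so they do not hold for these genes. The simulated noise was drawn independently for each gene and array. It therefore holds no shift shared by many genes on an array, such as that of control replicate 4, and the rates and false calls leave such shifts out. The number of arrays limits the precision. The 36 genes, roles and lists were chosen with earlier results of these data known. Values per array are printed for the 2 genes of a role with the smallest p. They are also printed for the 6 genes with the largest gap of control replicate 4. Cd8a and Ccl5 were added after their values were seen. Per other list 2 genes are named, those with the smallest p. Il18rap and Il12rb2 were named in addition for their p without control replicate 4, and Cd226 for standing in more than 1 list. The granzyme genes of the list of further cytotoxic genes were named in addition, also after their values were seen. Alternatives were normalisation, filters on dim genes, treatment of several probe sets, variance model, array weights, a replicate block and leaving out arrays. Sequences are from RefSeq.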

Additional observations from a re-analysis of the deposited data

Results flagged for a closer look

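Each gene or mean level gave 1 group of 5 values for ECP and 1 for control, 90 in all. In 23 the highest or lowest value was separated from its neighbour by a gap above a fixed share of the group's range (Dixon's 95% criterion), and chance flags about 1 in 20 such groups, or 4.5. The groups share arrays and genes that move together, so these are not independent. Control replicate 4 was the high array in 15 of the 23. Among single genes this was so for Cd3e (7.98, next 6.41), Cd8a (7.66, next 6.52), Cd8b1 (7.68, next 5.79), Cd2 (7.27, next 5.78), Icos (8.90, next 7.27), Lat (8.06, next 7.26), Themis (6.87, next 5.62), Nkg7 (6.97, next 6.48) and Cd69 (7.38, next 5.14). Among mean levels it was so for all 36 genes (6.48, next 5.86), the receptor complex (7.11, next 6.04), the coreceptors (7.98, next 6.74), adhesion and costimulation (7.05, next 6.22), receptor signalling (7.04, next 6.36) and the intraepithelial and residency genes (6.97, next 6.10). The mean levels of NK receptors and cytotoxic effectors had no array apart in either group.

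ECP replicate 1 was high among the ECP arrays in Cd4 (7.99, next 7.76), Cd8b1 (6.26, next 5.70), Cd28 (6.82, next 6.13) and Gzmk (4.63, next 4.23). ECP replicate 5 was high in Cd247 (6.62, next 6.24) and Gzma (7.02, next 6.22). ECP replicate 4 was low in Fasl (4.72, next 5.31) and control replicate 5 low in Ubash3a (6.94, next 7.31).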

How the results depend on the processing

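Limma called 0 of the 36 genes under each of the 21 alternatives, which tested 4 to 36 of them; the smallest adjusted p in each ran from 0.420, without control replicate 5, to 1.000, with the replicate block or without ECP replicate 4. The count over all genes was 0 and became 7 with genes below the median level left out, which left 4 of the 36, 1 with the lowest quartile left out, 1 with trend and robust options and 1 without control replicate 3 (range 0 to 1 over arrays left out). The mean level of the 36 genes differed by -0.04, and by -0.10 to 0.10 without 1 array. It differed by 0.06 without control replicates 1 and 4. In that setting 23 of the 36 genes had a higher ECP mean and 13 a lower one, and the share over all genes was not counted. Without 1 array the receptor complex differed by -0.25 to 0.11, the coreceptors by -0.28 to 0.14 and cytotoxic effectors by 0.04 to 0.14. Signs changed for 18 of 36 genes without control replicate 4, 16 without control replicates 1 and 4, 12 without ECP replicate 1 and control replicate 4 (chosen after seeing the data), 10 with array weights and 5 or fewer otherwise. The median gap of control replicate 4 was 0.51, and 0.48 to 0.53 under the alternatives run. Same-numbered arrays correlated at -0.244 to 0.0761 and none best with its own number. No pairing by number was seen, but such a correlation cannot exclude one, and the sample titles do not state one. With the replicate block limma called 0 of the 36 genes and 0 of all genes. The mean level is a plain mean over each group, so the block could not change its difference of -0.04. Most of these genes lie low in the range of the array, which limits how far a fall could be seen.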
